A study of Mus musculus with 12 samples.

Results

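The comparison concerns the response of heart to dietary iron set against the response of skeletal muscle. For each probe, the log2 signal of hearts on the iron diet minus that of hearts on the control diet gave the response of heart, the same difference in skeletal muscle gave the response of muscle, and the second was subtracted from the first. All 12 arrays of the series entered it, 3 in each of 4 groups, with 46133 probes per array. The groups were Heart_iron and Heart_control, from mice fed 2% carbonyl iron and a diet holding 0.02% iron, and Skeletal_muscle_iron and Skeletal_muscle_control, from mice on the same diets. All mice were C57BL/6 males aged 18 weeks, and the methods of the study describe both tissues as taken from 3 mice of each diet and name the muscle as the extensor digitorum longus. Values are means over pieces of whole tissue, in which fewer cells of a type and less RNA per cell cannot be told apart.

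Excess iron in muscle cells is held in ferritin, and free iron can drive the formation of reactive oxygen species. The mRNA of the transferrin receptor Tfrc is stabilised by iron regulatory proteins when cells lack iron and is broken down when they are replete, so that it is a common readout of cellular iron. Molecular chaperones of the heat shock families fold proteins and are induced by heat shock factor 1, which binds repeated short units upstream of their genes. Immediate early genes such as Fos respond within minutes to contraction, growth factors and handling of tissue, and genes such as Pdk4, Angptl4 and Txnip follow fasting, fatty acids and glucose in both tissues.

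The labels of the tissues were borne out by their defining genes. Troponin T2, Tnnt2, averaged 57900 in Heart_control and 349 in Skeletal_muscle_control, and the fast troponin C gene Tnnc2 averaged 251 and 60600. A pair of heart arrays stood apart. The median correlation with the other heart arrays was 0.93 for Heart_iron 1 and 0.936 for Heart_control 2, against 0.985 to 0.986 for the other hearts, and pairs of muscle arrays lay from 0.983 to 0.987. On Heart_iron 1 the 8 atrial cardiomyocyte markers summed to 58400, against 2546 to 6019 on the other heart arrays, and the 8 seminal vesicle genes summed to 8222, against 1957 to 2088. On Heart_control 2 the 13 adipocyte markers summed to 8216, against 3848 to 4296 on the other heart arrays, and the 26 heat shock genes to 168100, against 101900 to 122100. The tests were therefore run over all 12 arrays and again over the 10 arrays left without these 2, with n = 2 hearts per diet, and the part of these markers in the results was not tested. The methods of the study report hybridization problems on 1 control and 1 iron-loaded heart array. Probes that failed there were left out by the authors for those arrays. Which arrays these were is not stated, and all 46133 probes were kept here. The heart tables of the study mark some genes as read on fewer arrays than the others. Among them are Txnip, Angptl4, Pdk4, S100a8, S100a9, Cited2, Cirbp, Fbp2, Egr1 and Acta1. Heart values of these genes over all 12 arrays may therefore include readings of probes that failed. Whether the arrays with failed probes are Heart_iron 1 and Heart_control 2 was not tested.

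Over all 12 arrays no probe had a response that differed between heart and skeletal muscle at an adjusted p under 0.05 in limma (0% of 46133 probes, smallest adjusted p = 0.514), and 1547 probes, 3.35%, had an unadjusted p under 0.05. Over the 10 arrays 8 probes passed, of which 6 (0.013%) had a higher response in heart than in muscle and 2 (0.00434%) a lower one. Those with the higher response were Fos, Slc25a25, Mettl21c, Lgals4, Rrad and probe 770725, which has no gene symbol, and those with the lower response were the skeletal actin gene Acta1 and the unnamed probe 105550685. The median standard error of the difference between the tissues was 0.11 on the log2 scale with 3 arrays per group. The median normalized signal over all probes was 257 and the upper quartile 300, and for a gene at such a level in 1 tissue a response there may not show.

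More probes passed for the mean of the responses than for the difference. These counts cannot be compared directly, since the mean had the smaller standard error. For Hsph1 over the 12 arrays it was 0.124, against 0.23 for the difference. The mean of the responses of heart and muscle passed the threshold for 9 probes over the 12 arrays, 2 higher (0.00434%) and 7 lower (0.0152%) on the iron diet. The 2 higher were Txnip and Angptl4, and the 7 lower were Hsph1, Hsp90aa1, Id1, Col4a1, both probes of Cdkn1a and the unnamed probe 3610484. Over the 10 arrays 31 probes were higher (0.0672%) and 37 lower (0.0802%), and these 68 included all 9. All 68 had the same sign in both tissues, but the mean can pass where a single tissue moved, as with Acta1, Rrad, Lgals4 and Mettl21c below, and 34 of the 68 had an unadjusted p under 0.05 for the difference between the tissues. When the arrays were scaled to equal medians in place of quantile normalization, no probe passed for the mean response, which had a smallest adjusted p of 0.153.

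**Figure D1:**
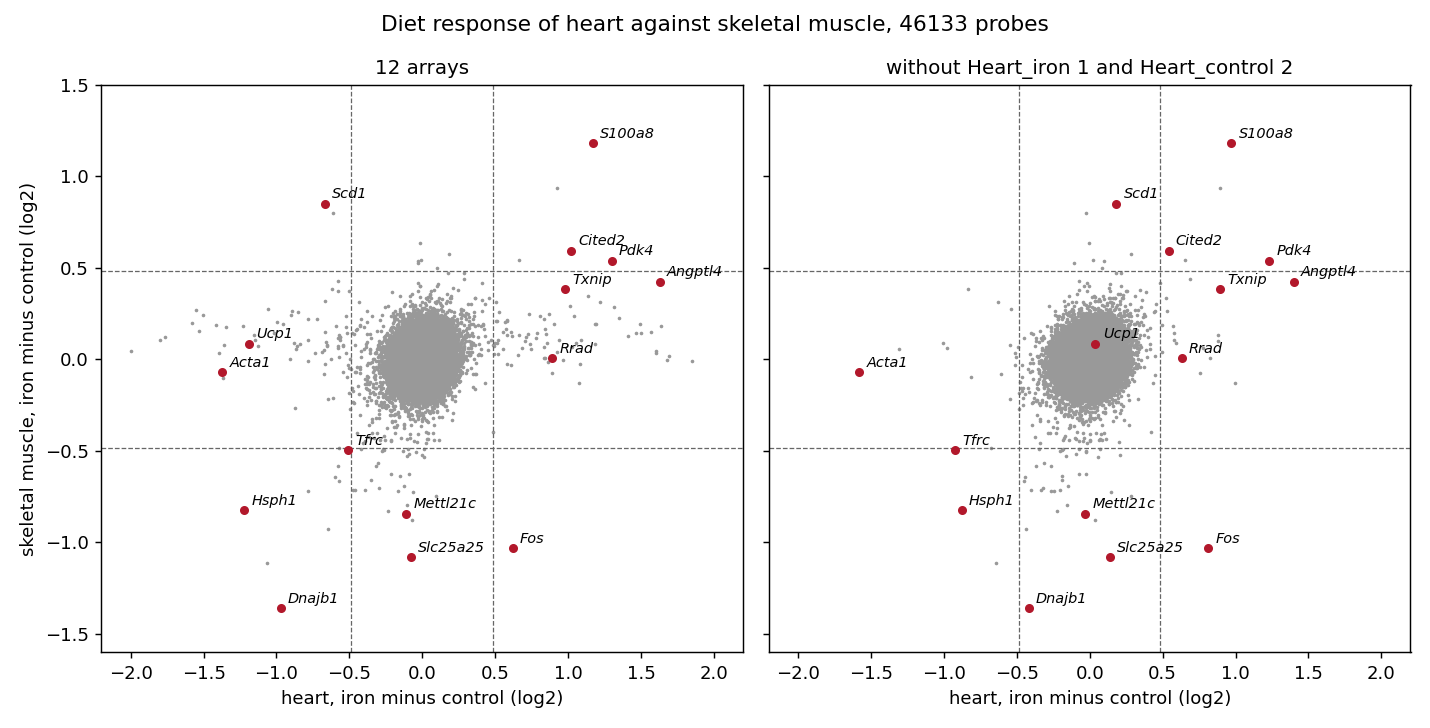
Each of the 46133 probes is a point, with the response of heart (iron minus control, log2) on the horizontal axis and that of skeletal muscle on the vertical axis, for all 12 arrays on the left and without Heart_iron 1 and Heart_control 2 on the right. Dashed lines mark 1.4-fold. Shared responses lie in the lower left and upper right corners, Fos lies in the lower right corner in both panels, and the wide spread of the left panel along the heart axis, with Ucp1 at -1.19, narrows in the right panel.

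By size alone, at least 1.4-fold as a difference of mean log2 signals, 0.18% of probes were higher and 0.189% lower in heart, and 0.0282% were higher and 0.0889% lower in skeletal muscle. In both tissues 5 probes were higher (0.0108%), 9 were lower (0.0195%) and 3 went in opposite directions (0.0065%). A further 77 were higher and 76 lower in heart with muscle under 1.4-fold, and 6 were higher and 31 lower in muscle with heart under it. Without Heart_iron 1 and Heart_control 2 the counts of probes at this size in heart alone dropped to 18 higher and 16 lower, those shared were 5 higher and 3 lower, and Fos was the 1 opposite. The 5 shared higher genes, Pdk4, S100a8, S100a9, Cyp26b1 and Cited2, were the same in both sets of arrays. Over all probes, the responses of heart and muscle had a Pearson correlation of 0.115 (12 arrays) and 0.118 (10 arrays), and over the 23066 probes above the median signal 0.182 and 0.208. These are descriptions across probes, which are not independent and share the animals and the normalization.

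The heat shock chaperones were lower on the iron diet in both tissues for most genes of the list. Of 26 measured genes of the list, 22 had a lower mean on the iron diet in both tissues and 1 a higher mean in both, against 4714 and 4660 of all 17658 genes. The counts over the 10 arrays were again 22 and 1, against 4745 and 4595. Over the 12 arrays the median response of the list was -0.27 in heart and -0.23 in skeletal muscle on the log2 scale, against -0.00026 and -0.00022 over all genes. None of the 26 had an unadjusted p under 0.05 there for the difference between the tissues. Over the 10 arrays the median difference was 0.049, and no gene of the list passed the adjustment. Dnajb1 and Hsp90aa1 fell more in muscle than in heart there, with differences of 0.894 and 0.469, while Hsph1 was at -0.056. In the mean response 2 of the 26 fell over the 12 arrays, Hsph1 and Hsp90aa1, and 7 over the 10 arrays, which added Dnajb1, Hspb1, Serpinh1, Stip1 and Chordc1. Of all 17658 genes, 5 fell over the 12 arrays and 28 over the 10. These counts use the brightest probe of each gene. A dimmer probe of Hspa8 also passed over the 10 arrays (-0.291, adjusted p = 0.0259, limma), while its brightest did not. None of the list rose in either set.

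Hsph1, an Hsp110 nucleotide exchange factor for Hsp70, had signals of 851, 912 and 913 in Heart_iron, against 1650, 3190 and 1700 in Heart_control. In skeletal muscle it had 1120, 1070 and 992 on iron, against 1830, 2030 and 1770 on control. All iron arrays lay below all control arrays in each tissue. The mean response was -1.02 (SE 0.124, adjusted p = 0.00779, limma), and -0.85 (adjusted p = 7.17e-09) without the 2 heart arrays. The difference between the tissues was -0.40 (95% interval -0.885 to 0.0914), and -0.056 with 10 arrays.

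Hsp90aa1, the stress-inducible Hsp90, had 1190, 1110 and 1100 in Heart_iron, against 1560, 2500 and 1440 in Heart_control, and 574, 601 and 673 in Skeletal_muscle_iron, against 1070, 1360 and 1100 in Skeletal_muscle_control. The groups did not overlap in either tissue, and the mean response was -0.79 (SE 0.110, adjusted p = 0.0215, limma), and -0.69 over the 10 arrays, where the response of heart was -0.44, against -0.65 over 12. Dnajb1, an Hsp40 that delivers substrates to Hsp70, had 1260, 1240 and 2060 in Heart_iron, against 2250, 5290 and 2030 in Heart_control, and 570, 670 and 892 in Skeletal_muscle_iron, against 1830, 2450 and 1280 in Skeletal_muscle_control. Its arrays overlapped in heart, where Heart_iron 3 lay above Heart_control 3, and did not overlap in muscle. Its mean response of -1.16 had an adjusted p of 0.118 over 12 arrays and passed over the 10 (-0.91, adjusted p = 0.00139). In heart alone its fold change was 0.51, and its log2 response there shrank to -0.42 without the 2 arrays, against -1.36 in muscle.

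Hspb1, the small heat shock protein Hsp25, had 3900, 3560 and 3760 in Heart_iron, against 5270, 7260 and 4690 in Heart_control, and 2260, 3240 and 2210 in Skeletal_muscle_iron, against 3960, 4080 and 3840 in Skeletal_muscle_control. The diets did not overlap in either tissue. The 2 responses were of nearly equal size, -0.595 in heart and -0.645 in muscle, with a difference of 0.05 (95% interval -0.365 to 0.465), and the mean response had an adjusted p of 0.0618 over 12 arrays and 0.00138 over 10. Serpinh1, the collagen chaperone Hsp47, had a mean response of -0.585, and Stip1, which links Hsp70 to Hsp90, one of -0.46, both past the threshold only with 10 arrays (adjusted p = 1.63e-05 and 0.00138). Smaller values that passed in neither set were those of Bag3 (mean response -0.42), Cryab (-0.37), Hspa1a (-0.37) and the mitochondrial Hspd1 (-0.15), and Hspa4 was at 0.053.

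The 150 bases before the start of Hsph1 and Hspb1 are shown because both genes had a lower mean on iron in both tissues and both stretches hold the unit arrangement read by heat shock factor 1. They are from RefSeq (build GRCm38.p6), 5′ to 3′ on the strand of the gene, with matches to TTCNNGAA or GAANNTTC in capitals. For Hsph1, at chr5:149636337-149636486 on the minus strand, the match begins 33 bases before the start shown, and both of the 2 starts in the table have a match.
Hsph1: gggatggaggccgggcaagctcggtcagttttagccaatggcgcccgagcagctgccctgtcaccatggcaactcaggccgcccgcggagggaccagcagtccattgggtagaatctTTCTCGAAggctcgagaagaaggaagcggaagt
For Hspb1, at chr5:135887769-135887918 on the plus strand, the matches begin 117 and 97 bases before the start.
Hspb1: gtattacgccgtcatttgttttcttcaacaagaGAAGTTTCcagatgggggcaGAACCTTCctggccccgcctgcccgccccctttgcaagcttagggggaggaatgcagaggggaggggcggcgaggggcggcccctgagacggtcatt
Both arrangements were searched in the 250 bases before each start, and since each is its own reverse complement this covers both strands. Of the 22 list members with a promoter in the table, 10 (45.5%) held a match, against 14.5% of all 27025 genes and 12.8% of all 32851 promoters. Of the 7 list members that fell over the 10 arrays, Hsph1 and Hspb1 held a match, Dnajb1, Serpinh1, Stip1 and Chordc1 had none in this window, and no promoter of Hsp90aa1 was used. The other 8 members with a match passed in neither set. A match is a description of the letters only.

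**Figure D2:**
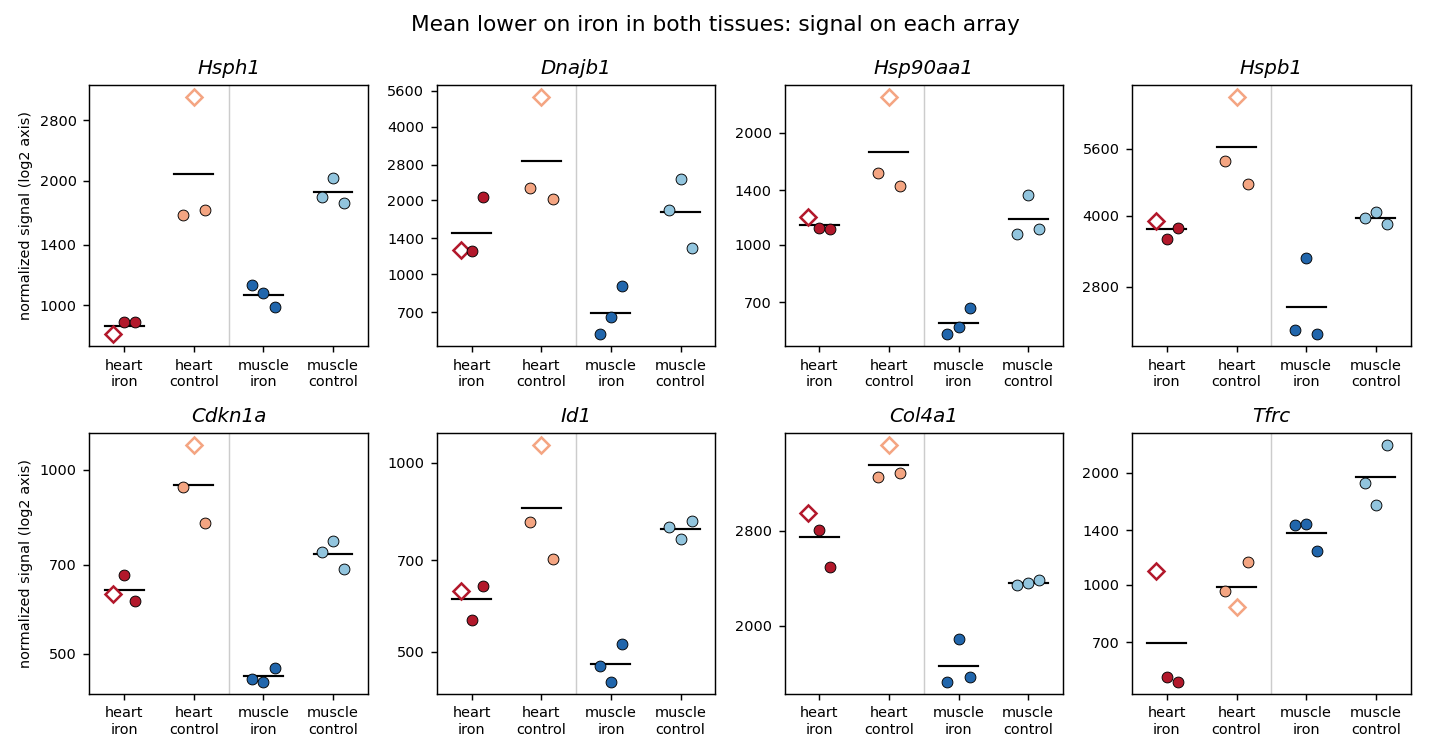
Normalized signal (log2 axis) of 8 genes on each of the 12 arrays, iron left of control in each tissue, with bars at the mean of log2 values; open diamonds are Heart_iron 1 and Heart_control 2. All iron points lie under all control points in both tissues for Hsph1, Hsp90aa1, Hspb1, Cdkn1a, Id1 and Col4a1, while Dnajb1 and Tfrc overlap in heart.

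Among the other shared responses downward, Cdkn1a, which encodes the cell cycle inhibitor p21, had the smallest adjusted p. Its signals were 626, 674 and 611 in Heart_iron, against 936, 1100 and 820 in Heart_control, and 455, 450 and 475 in Skeletal_muscle_iron, against 734, 766 and 688 in Skeletal_muscle_control. No iron array reached a control array of the same tissue. The responses were -0.57 in heart and -0.66 in muscle, with a mean of -0.62 (SE 0.0661, adjusted p = 0.00314, limma), and a second probe of the gene gave a mean response of -0.43 (adjusted p = 0.0215). The difference between the tissues was 0.090 (95% interval -0.17 to 0.35). The mean response was -0.56 over the 10 arrays.

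Id1, an inhibitor of basic helix-loop-helix factors and a target of BMP signalling, had 625, 563 and 636 in Heart_iron, against 805, 1070 and 704 in Heart_control. In muscle it had 475, 448 and 515 on iron, against 792, 756 and 808 on control, again with no overlap in either tissue. Its mean response was -0.60 (SE 0.0835, adjusted p = 0.0215, limma), and -0.52 over the 10 arrays. Col4a1, a basement membrane collagen, had 2980, 2810 and 2460 in Heart_iron, against 3390, 3800 and 3430 in Heart_control, and 1640, 1910 and 1670 in Skeletal_muscle_iron, against 2310, 2330 and 2350 in Skeletal_muscle_control. Its mean response was -0.395 (adjusted p = 0.0418), or -0.40 over the 10 arrays, and that of its partner chain Col4a2, encoded beside it, was -0.36 and passed only with 10 arrays (adjusted p = 0.00271). Klf4, a zinc finger factor, had a mean response of -0.55 (adjusted p = 0.0566 over 12 and 0.00292 over 10 arrays), and Ip6k3, an inositol hexakisphosphate kinase, one of -0.44 (adjusted p = 0.0618 and 0.00168). Over the 10 arrays Klf4 had -0.205 in heart and -0.713 in muscle, and another probe of it -0.0738 and -0.625, so its response lay mainly in muscle. Ip6k3 had -0.313 in heart and -0.568 in muscle. The other 6 measured genes of the BMP-SMAD list did not pass in the mean response in either set.

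Ppp1r3c, which targets protein phosphatase 1 to glycogen, had 4890, 2930 and 3200 in Heart_iron, against 5020, 6300 and 4780 in Heart_control, and 9320, 8740 and 8680 in Skeletal_muscle_iron, against 13100, 12500 and 11800 in Skeletal_muscle_control. Heart_iron 1 alone lay within the control range of its tissue. The mean response of -0.53 had an adjusted p of 0.157 over 12 arrays and 5.68e-06 over 10. Ddit4, which restrains mTORC1 under stress, was lower by 1.4-fold in both tissues over the 12 arrays, at -0.581 in heart and -0.583 in muscle, but its response in heart was -0.37 without the 2 arrays, under 1.4-fold (mean response adjusted p = 0.153, and 0.0341 with 10 arrays). Errfi1, whose product damps signalling of the EGF receptor, was also past 1.4-fold in both, but its mean response did not pass in either set, and Heart_control 2 at 2120 lay far above Heart_control 1 at 823 and Heart_control 3 at 687. The unnamed probe 105700270 had a mean response of -1.09 (adjusted p = 0.0618, and 0.00138 with 10 arrays), with fold changes of 0.478 in heart and 0.462 in muscle.

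Tfrc had a lower mean on iron in both tissues. In heart its signals were 1090, 565 and 548 on iron, against 964, 869 and 1150 on control, and in muscle 1450, 1460 and 1230 on iron, against 1880, 1640 and 2380 on control. The diets did not overlap in muscle, and in heart only Heart_iron 1 lay within the control range. The responses over 12 arrays were -0.51 and -0.50 and the mean response had an adjusted p of 1.0 in limma. Over the 10 arrays the response of heart was -0.92, the mean response -0.70 (SE 0.0821, adjusted p = 4.21e-05), and the difference between the tissues -0.41, which did not pass. Of the 31 measured genes of iron transport, storage and sensing, Tfrc alone passed for the mean response with 10 arrays, none passed with 12, and none differed between the tissues at the adjusted threshold in either set. The list had a median response of -0.032 in heart and 0.0083 in muscle. The ferritin heavy chain Fth1 had -0.44 in heart and -0.15 in muscle, ferritin light chain Ftl1 -0.13 and -0.065, and the exporter ferroportin, Slc40a1, 0.26 and 0.028.

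Upward in both tissues, the genes past 1.4-fold and those that passed the test for the mean response included regulators of fuel use. Txnip, an inhibitor of thioredoxin that also limits glucose uptake, had 5790, 7140 and 6080 in Heart_iron, against 3580, 2610 and 3520 in Heart_control. In muscle it had 10100, 9850 and 9280 on iron, against 7350, 8280 and 6820 on control. The diets did not overlap in either tissue, and the mean response was 0.68 (SE 0.0846, adjusted p = 0.00779, limma). On the log2 scale the response was 0.98 in heart and 0.38 in muscle, a difference of 0.59 (95% interval 0.26 to 0.93) with an unadjusted p of 0.00167 that did not pass the adjustment. With 10 arrays the mean response was 0.635 and the difference 0.50, which did not pass.

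Angptl4, a secreted inhibitor of lipoprotein lipase, had 1490, 1390 and 759 in Heart_iron, against 512, 354 and 295 in Heart_control, and 435, 496 and 339 in Skeletal_muscle_iron, against 365, 300 and 276 in Skeletal_muscle_control. In heart the diets did not overlap, and in muscle Skeletal_muscle_iron 3 lay below Skeletal_muscle_control 1. The mean response was 1.03 (SE 0.161, adjusted p = 0.0476, limma). It was 3.09-fold in heart and 1.34-fold in muscle, a difference of 1.2 (95% interval 0.57 to 1.84, unadjusted p = 0.00102), which did not pass. With 10 arrays the mean response was 0.92 and the difference 0.98, which did not pass. Pdk4, the kinase that shuts down pyruvate dehydrogenase, had 14300, 17100 and 15200 in Heart_iron, against 10000, 5320 and 4670 in Heart_control, and 13600, 17700 and 13800 in Skeletal_muscle_iron, against 13700, 9280 and 8490 in Skeletal_muscle_control. Control 1 was the highest control in each tissue, and in muscle it lay within the iron range. The mean response of Pdk4 was 0.92 (adjusted p = 0.0639 over 12 arrays and 0.00168 over 10).

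Of 23 measured PPAR targets and enzymes that oxidise fatty acids, 14 had a higher mean on iron in both tissues and 1 a lower mean in both. Over all 17658 genes the counts were 4660 and 4714. Only Angptl4 passed in the mean response over 12 arrays, and Angptl4, Pdk4 and Mlycd, malonyl-CoA decarboxylase, over 10. Of all genes, 2 passed with a higher mean response over 12 arrays and 23 over 10. The list's median response was 0.054 in heart and 0.063 in muscle, small beside those of its leading genes. Of its genes, 5 had an unadjusted p under 0.05 for a higher response in heart than in muscle and none for a lower one, namely Angptl4, Pdk4, Ehhadh, Acadl and Plin2, and none passed the adjustment. Ehhadh, a peroxisomal oxidation enzyme, had 0.26 in heart and -0.035 in muscle, and Plin2, a lipid droplet coat protein, 0.16 and -0.15. Over all genes 268 had such a p for a higher and 310 for a lower response in heart.

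S100a8 and S100a9 encode the subunits of calprotectin, a protein abundant in neutrophils. S100a8 had 763, 1130 and 598 in Heart_iron, against 653, 258 and 269 in Heart_control, and 682, 819 and 378 in Skeletal_muscle_iron, against 273, 271 and 243 in Skeletal_muscle_control. S100a9 had 600, 937 and 532 in Heart_iron, against 519, 304 and 277 in Heart_control, and 596, 657 and 404 in Skeletal_muscle_iron, against 287, 273 and 286 in Skeletal_muscle_control. Heart_control 1 was the highest control for both genes and overlapped the iron range only for S100a8. The fold in heart and in muscle was 2.25 and 2.27 for S100a8 and 1.90 and 1.92 for S100a9. Most control values lay near the median signal of all probes, so these folds are limited by the floor of the array and the likeness of the tissues cannot be read from them. The mean responses of 1.18 and 0.93 had adjusted p of 0.133 and 0.0703 over 12 arrays and passed over 10 (0.00689 and 0.00168), and both also passed when Heart_control 1 alone was left out. Of the 17 measured neutrophil markers, these 2 were past 1.4-fold in each tissue. The other 15, among them Ngp, Camp, Ltf, Mpo and Elane, lay between -0.18 and 0.17 in heart and passed in neither set, and the part of neutrophils in the response of S100a8 and S100a9 was not tested.

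Cited2, a transcriptional coregulator, had 1640, 2150 and 2050 in Heart_iron, against 1530, 414 and 1360 in Heart_control, and 2630, 2400 and 2100 in Skeletal_muscle_iron, against 1470, 1810 and 1450 in Skeletal_muscle_control. The diets did not overlap in either tissue, and the size in heart rested on Heart_control 2, and without it and Heart_iron 1 the responses were 0.54 in heart and 0.59 in muscle. Cyp26b1, a retinoic acid hydroxylase, was 1.59-fold higher in heart and 1.46-fold in muscle. Both passed in the mean response over 10 arrays only (adjusted p = 0.000201 and 0.031, against 1.0 and 0.397 over 12). Cirbp, a cold-inducible RNA-binding protein, had 453, 466 and 460 in Heart_iron, against 305, 380 and 360 in Heart_control, and 328, 347 and 389 in Skeletal_muscle_iron, against 236, 291 and 270 in Skeletal_muscle_control. The iron arrays lay above the control arrays in both tissues, at responses of 0.41 and 0.42 (mean response adjusted p = 0.0611, and 0.00168 with 10 arrays). Its relative Rbm3 had 0.29 and 0.19 and did not pass. The splicing factor Srsf5, the muscle fructose bisphosphatase Fbp2 and Fam214a likewise passed over 10 arrays, with mean responses over 12 of 0.34, 0.40 and 0.30.

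**Figure D3:**
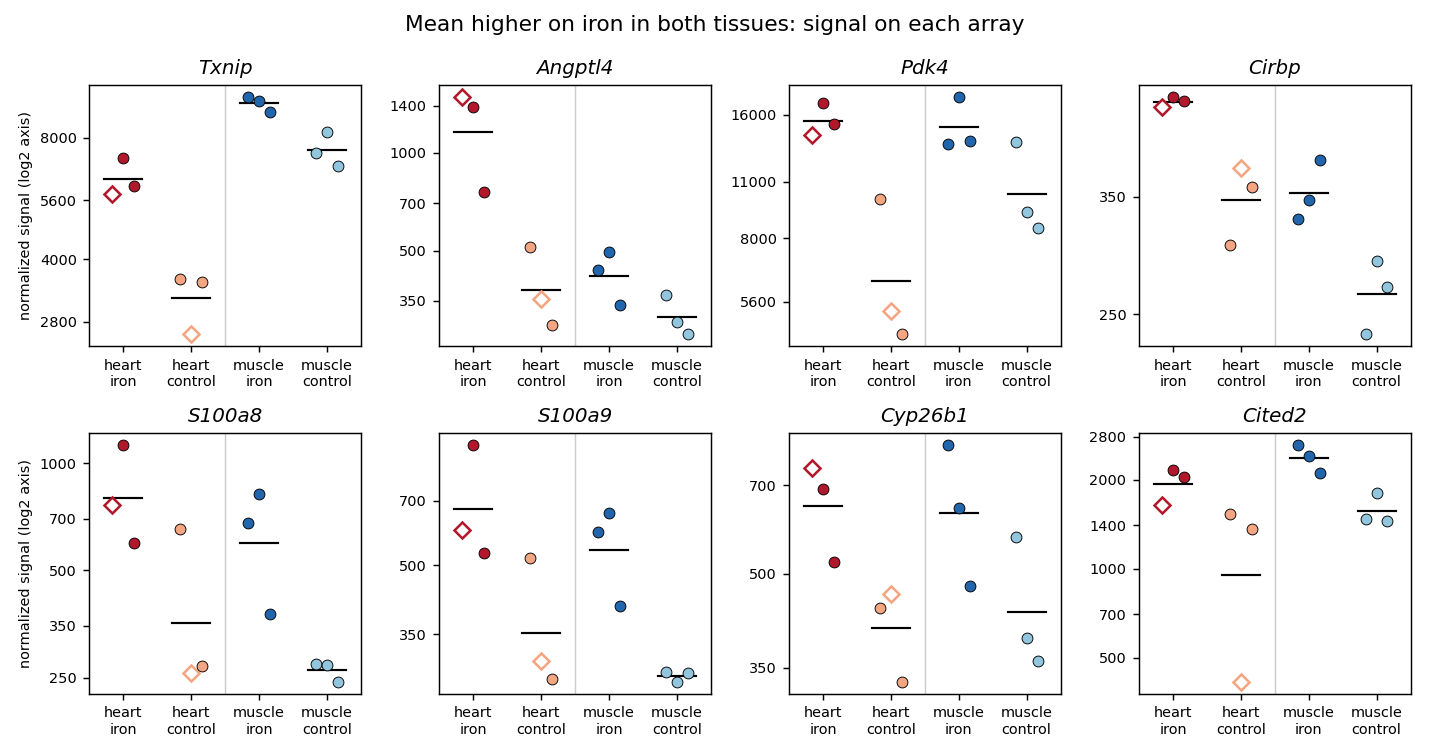
Normalized signal (log2 axis) of 8 genes on each of the 12 arrays, iron left of control in each tissue, with bars at the mean of log2 values; open diamonds are Heart_iron 1 and Heart_control 2. For Txnip, Cirbp and Cited2 every iron point lies above every control point of its tissue, while in Angptl4, Pdk4 and Cyp26b1 the muscle points of the diets overlap.

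Arrays of the diets that did not overlap in either tissue occurred in the same direction for 0.501% of all probes and in opposite directions for 0.284%. Fos, which encodes a subunit of the AP-1 transcription factor, was the only gene symbol past 1.4-fold in opposite directions both over the 12 and over the 10 arrays. Its signals were 861, 602 and 609 in Heart_iron, against 405, 732 and 294 in Heart_control. In muscle they were 509, 499 and 693 on iron, against 1610, 1190 and 774 on control. The diets did not overlap in muscle, and in heart Heart_control 2 lay within the iron range. The response was 0.62 in heart and -1.03 in muscle, a difference of 1.64 (95% interval 0.85 to 2.44, unadjusted p = 0.000463) that did not pass over 12 arrays. Without the 2 heart arrays it was 1.82 (SE 0.235, adjusted p = 0.00162, limma).

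Fos was not alone in its direction among the immediate early genes, although no other passed. Of 26 measured genes of the list, 7 had an unadjusted p under 0.05 for a higher response in heart than in muscle and none for a lower one, against 268 and 310 of all 17658 genes. They were Fos, Egr3, Atf3, Junb, Nr4a2, Klf6 and Klf2. Atf3 and Nr4a2 had mean log2 signals of 8.12 and 8.11 over all arrays, near the median signal of all probes. Egr3 was dim in heart, at 235 to 372. For genes at such levels in heart a response there may not show, and the difference describes mainly muscle. The median response was -0.018 in heart and -0.18 in muscle, with a median difference of 0.14, and 0.23 without the 2 heart arrays. Egr3, a zinc finger factor, had 304, 290 and 333 in Heart_iron, against 235, 372 and 276 in Heart_control, and 259, 352 and 474 in Skeletal_muscle_iron, against 538, 855 and 443 in Skeletal_muscle_control. Its diets overlapped in both tissues, with a difference of 0.84 (95% interval 0.21 to 1.47). Atf3, a stress-induced factor, had responses of -0.035 and -0.45, and Junb, a partner of Fos, 0.15 and -0.22. Over the 12 arrays Egr1 had 0.070 in heart and 0.27 in muscle, and Fosb -0.72 and 0.22. Without the 2 heart arrays the response of heart was 0.53 for Egr1, above that of muscle, and 0.19 for Fosb. The summed signal of the list ranged from 16550 to 17790 in Heart_iron, against 15220 to 23330 in Heart_control, and from 13990 to 18350 in Skeletal_muscle_iron, against 16040 to 20800 in Skeletal_muscle_control, with the highest value of heart on Heart_control 2.

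Scd1, stearoyl-CoA desaturase, was the other gene past 1.4-fold in opposite directions over the 12 arrays, but its response in heart rested on 1 array. It had 933, 630 and 532 in Heart_iron, against 536, 4810 and 486 in Heart_control, and 1740, 1720 and 1340 in Skeletal_muscle_iron, against 876, 1120 and 694 in Skeletal_muscle_control. In muscle the diets did not overlap (1.80-fold higher). In heart Heart_control 2 stood alone, and without it and Heart_iron 1 the response changed sign, to 0.18, against -0.67 over all arrays. The difference between the tissues was -1.52 (95% interval -3.14 to 0.11) over 12 arrays and -0.68 over 10, and passed in neither set. The mean response of Scd1 passed over the 10 arrays (0.509, adjusted p = 0.0183, limma), with 0.182 in heart and 0.85 in muscle. The signals of Fasn, fatty acid synthase, had the same pattern, with 765, 676 and 563 in Heart_iron, against 669, 2300 and 631 in Heart_control, and 759, 590 and 709 in Skeletal_muscle_iron, against 501, 512 and 509 in Skeletal_muscle_control. Its mean response passed in neither set. The brown adipocyte gene Ucp1 was at 2680 on Heart_control 2 and from 211 to 248 on the other heart arrays. The summed adipocyte markers stood at 4296, 4061 and 4045 in Heart_iron, against 4097, 8216 and 3848 in Heart_control, and from 17830 to 25070 in Skeletal_muscle_iron, against 19440 to 26960 in Skeletal_muscle_control. The unnamed probe 2320736, the third opposite one, also had its highest heart value, 1380, on Heart_control 2, and its response in heart was -0.025 without the 2 arrays.

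**Figure D4:**
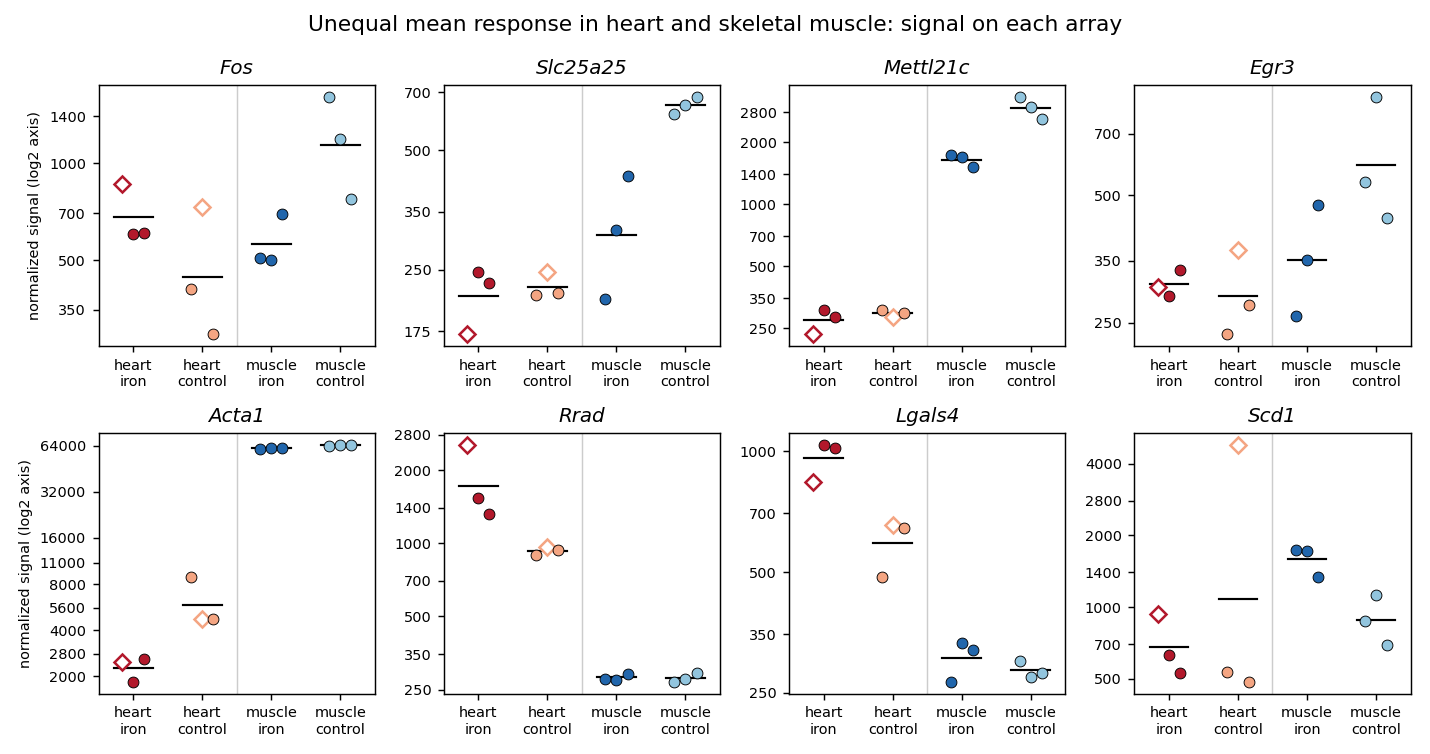
Normalized signal (log2 axis) of 8 genes on each of the 12 arrays, iron left of control in each tissue, with bars at the mean of log2 values; open diamonds are Heart_iron 1 and Heart_control 2. Mean Fos was higher on iron in heart and lower in muscle, Slc25a25 and Mettl21c were lower in muscle, Acta1 was mainly lower and Rrad and Lgals4 were higher in heart, and Scd1 in heart was high on Heart_control 2 alone.

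Slc25a25 and Mettl21c were lower on iron in skeletal muscle, and their diets overlapped in heart. Slc25a25, a mitochondrial carrier of ATP-Mg and phosphate, had 172, 247 and 232 in Heart_iron, against 216, 246 and 218 in Heart_control, and 211, 315 and 430 in Skeletal_muscle_iron, against 616, 648 and 681 in Skeletal_muscle_control. The difference between the tissues was 1.00 (95% interval 0.49 to 1.52) over 12 arrays and 1.19 over 10 (SE 0.206, adjusted p = 0.0364, limma). Mettl21c, a methyltransferase of skeletal muscle, had 1740, 1690 and 1510 in Skeletal_muscle_iron, against 3320, 2950 and 2600 in Skeletal_muscle_control. In heart it was dim, at 234 to 307 on iron, against 283 to 307 on control. Its difference was 0.73 over 12 arrays (unadjusted p = 9.35e-05, not past the adjustment) and 0.82 over 10 (SE 0.123, adjusted p = 0.00842). Both genes were near or below the upper quartile of all probes in heart, so these differences describe the response of muscle.

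Gadd45b, a stress sensor, was higher in muscle, with 467, 482 and 541 in Skeletal_muscle_iron, against 378, 363 and 375 in Skeletal_muscle_control, and overlapped in heart, with 288, 267 and 293 on iron, against 285, 296 and 282 on control. Its difference of -0.44 (95% interval -0.65 to -0.24) did not pass in either set. Pfkfb3, which makes the activator of phosphofructokinase, had 1840, 1890 and 1860 in Skeletal_muscle_iron, against 905, 1470 and 1560 in Skeletal_muscle_control, and 272 to 319 in Heart_iron, against 268 to 313 in Heart_control. Nfil3, a clock-linked repressor, and the metallothionein Mt1 had the larger response downward in muscle as well, -0.72 and -0.83, against -0.17 and -0.23 in heart, with no difference between the tissues that passed. The difference for Mt1 was 0.59 and moved with single control muscles, to 0.277 without Skeletal_muscle_control 2 and to 0.948 without Skeletal_muscle_control 3.

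In heart, Acta1, the skeletal isoform of alpha-actin that the adult heart expresses at a low level, had the largest lower response among the named genes that differed between the tissues. Its signals were 2460, 1830 and 2580 in Heart_iron, against 8900, 4710 and 4750 in Heart_control. All iron hearts lay below all control hearts, at a fold change of 0.388. In muscle it had 61100, 62300 and 62300 on iron, against 64000, 65400 and 65400 on control, near the highest normalized signal of any probe, 68700. The diets did not overlap in muscle either, with a fold change of 0.954, and since the probe is near its upper limit there, a response of muscle may not show and the difference below describes mainly heart. The difference between the tissues was -1.3 (95% interval -1.82 to -0.775, unadjusted p = 7.73e-05) and did not pass over 12 arrays. Over 10 it was -1.51 (SE 0.206, adjusted p = 0.00213, limma). The smooth muscle actin Acta2 had a smaller response in the same direction in heart, -0.45, against -0.070 in muscle, with a difference of -0.38 that did not pass. The 150 bases before the start of Acta1 are shown because they hold a CArG box, the site read by serum response factor, a regulator of both actin and immediate early genes (RefSeq, GRCm38.p6, chr8:123894776-123894925, minus strand, 5′ to 3′, CArG box in capitals).
Acta1: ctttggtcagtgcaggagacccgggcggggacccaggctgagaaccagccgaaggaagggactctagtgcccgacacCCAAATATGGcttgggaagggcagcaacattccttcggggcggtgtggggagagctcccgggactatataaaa
The box begins 73 bases before the start. A CArG box was found in the 250 bases before the start of 1 of the 19 immediate early genes in the table, Egr2, and of 1.62% of all genes. No match says only that these letters are not in this window.

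Rrad, a small GTPase that restrains the cardiac calcium channel, had 2550, 1530 and 1320 in Heart_iron, against 893, 963 and 942 in Heart_control, with no overlap. In muscle it had 277, 274 and 291 on iron, against 269, 277 and 293 on control, and these overlapped. The difference was 0.88 (95% interval 0.43 to 1.34) over 12 arrays and 0.63 over 10 (SE 0.110, adjusted p = 0.0396, limma). Lgals4, a galectin, had 840, 1040 and 1020 in Heart_iron, against 486, 656 and 643 in Heart_control, and 266, 333 and 320 in Skeletal_muscle_iron, against 300, 273 and 280 in Skeletal_muscle_control. Its difference was 0.60 over 12 arrays and 0.77 over 10 (SE 0.138, adjusted p = 0.0464). The unnamed probe 770725 had the smallest adjusted p of all over the 12 arrays (0.514), with 700, 764 and 695 in Heart_iron, against 463, 385 and 365 in Heart_control, and 295, 274 and 260 in Skeletal_muscle_iron, against 309, 277 and 243 in Skeletal_muscle_control. Rrad, Lgals4 and probe 770725 were all near the median signal of all probes in muscle, so these differences describe the response of heart.

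Frmd5, a FERM domain protein of cell junctions, was lower in heart, with 1940, 1370 and 1670 on iron, against 2300, 2820 and 2130 on control, and overlapped in muscle at 252 to 286 on iron, against 242 to 278 on control. Abat, the GABA transaminase, had 409, 316 and 355 in Heart_iron, against 482, 596 and 476 in Heart_control. Wif1, a secreted inhibitor of Wnt signalling, had 236, 238 and 236 in Heart_iron, against 321, 435 and 293 in Heart_control. The differences between the tissues were -0.63, -0.56 and -0.62, with unadjusted p from 0.00111 to 0.00114, and none passed in either set. The same holds for the remaining genes of smallest p, Art4, Wsb1 and Baz1b with the higher and Ppp1r32, Ntn4, Wt1 and Mmp17 with the lower response in heart, at differences of 0.33 to 0.45 and -0.53 to -0.34.

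**Figure D5:**
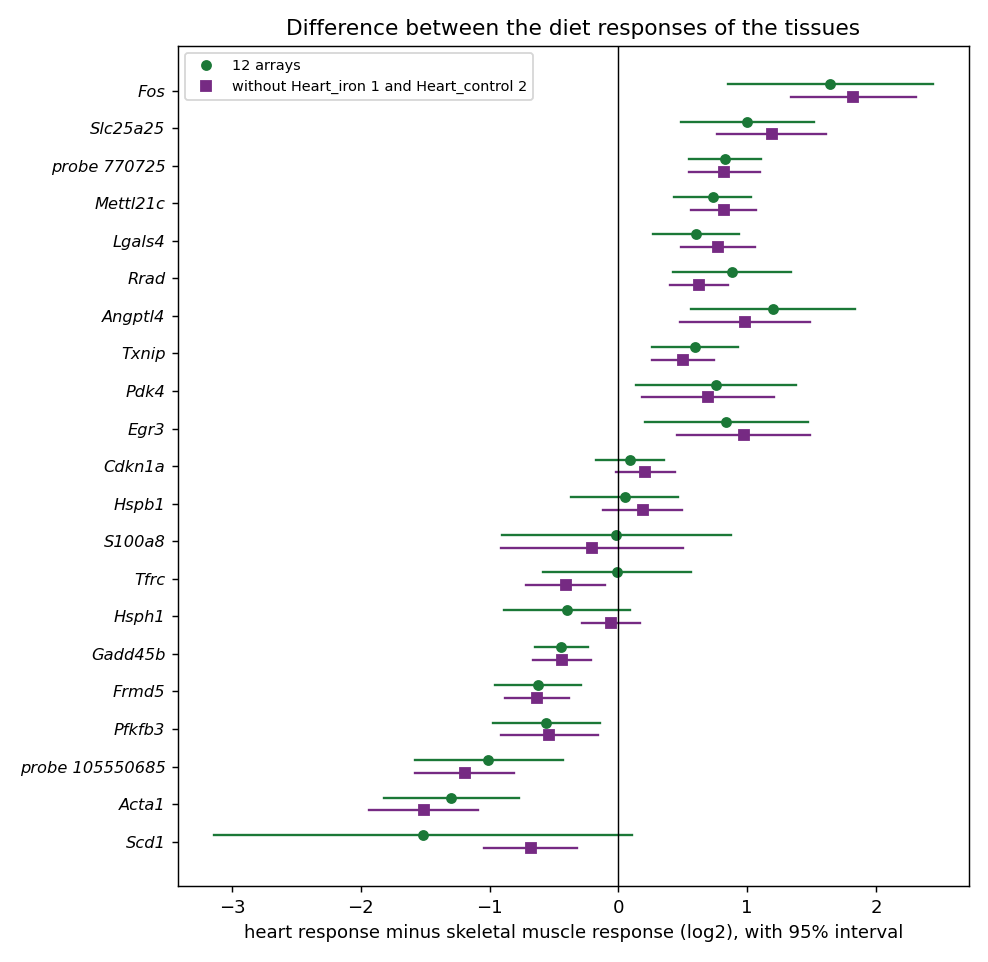
Response of heart minus response of skeletal muscle (log2) for 21 probes, with 95% intervals from limma that are not adjusted for the number of probes, over 12 arrays (circles) and without Heart_iron 1 and Heart_control 2 (squares). The intervals of Cdkn1a, Hspb1, S100a8 and Hsph1 hold 0 in both sets, those of Fos, Slc25a25, Mettl21c, Lgals4, Rrad and Acta1 do not, and that of Scd1 reaches from -3.14 to 0.11 over 12 arrays.

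In the other lists no gene differed between the tissues at the adjusted threshold over the 12 arrays, and over the 10 arrays the listed genes that did were Fos and Acta1. The 19 antioxidant enzymes and NRF2 targets had a median response of 0.0041 in heart and -0.039 in muscle, with none at an unadjusted p under 0.05 for the difference. The 16 circadian clock genes had medians of -0.089 and 0.018, and the 15 hypoxia responsive genes -0.0093 and -0.023. Markers of macrophages and endothelium, 10 genes each, had medians of -0.016 and -0.036 in heart, against 0.0071 and 0.017 in muscle. The summed atrial markers ranged from 2597 to 58400 in Heart_iron, against 2546 to 6019 in Heart_control, while the 11 ventricular and cardiac muscle markers summed to 147500 to 176100 in Heart_iron, against 146500 to 189900 in Heart_control. Over the 10 arrays the median response of the atrial list in heart was -0.089. Its genes Myl7 and Myl4 were still at -1.01 and -1.31 in heart there, while the others lay between -0.281 and 0.155. Heart_control 1, which was kept, had the atrial sum of 6019, against 2546 to 2608 on the other kept hearts.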

How the data were processed

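Total RNA of 12 tissue samples was hybridised by the authors to Illumina Sentrix Mouse-6 BeadChips, 1 array per sample. The deposited sample files hold unnormalized signal intensity per probe. A table of the same 12 arrays, deposited after quantile normalization by the authors, served as an alternative, and no detection p-values were used here. Array medians before normalization were 182.9 to 337.2, and lowest, 182.9 to 192.7, for replicate 3 of every group. Which chip held which array is not given in the sources used here. Signals were quantile normalized over the 12 arrays and taken to log2 with no offset. Limma 3.58.1 in R 4.3.3 (lmFit, eBayes, two-sided, Benjamini-Hochberg over 46133 probes, threshold 0.05) was fitted to 4 group means and a random effect of mouse (correlation 0.0717, and 0.119 over 10 arrays), heart and muscle of the same diet and number being taken as 1 mouse, which the labels do not state. Deviations of such pairs from the group means correlated at 0.0262 to 0.0998. Responses within each tissue are differences of group means. Probes were named from the platform annotation, with 29542 probes of 1 symbol, 11 of several and 16580 of none. Where several probes carried 1 symbol the brightest stood for the gene (17658 genes). The number of arrays limits the precision.

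Genes were named by rule: the 10 highest and 10 lowest for the difference between tissues and for the mean response, every probe of at least 1.4-fold in both tissues, up to 4 genes per list of smallest p for the difference, and 10 genes that the study names for both tissues. Of these, Hspa1b and Cfd are not named by the annotation used and were not analysed here. The members, the 15 pathway and 14 cell type lists, the alternatives and the 2 arrays left out were chosen with earlier results of these data known. The probes past the threshold over 10 arrays, and other list members given with values, were named after their values were seen. On simulated arrays of 46133 probes, the fit recovered 95 of 100 probes with a log2 difference of 1 between the tissues. It recovered 100 of 100 with a mean response of 1. On the real arrays with none left out, no probe passed for the difference, including Fos at 1.64 and Acta1 at -1.3. The simulated rate therefore cannot be taken as the rate of detection in these data. Alternatives covered the block, the normalization, background correction with an offset of 50, a filter on dim probes, the prior, array weights and leaving out each array.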

Additional observations from a re-analysis of the deposited data

Results flagged for a closer look

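The response of heart and that of skeletal muscle differed by a test of the difference itself for 8 probes without Heart_iron 1 and Heart_control 2 (limma, adjusted over all probes). The differences on the log2 scale were 1.82 for Fos (adjusted p = 0.00162), 1.19 for Slc25a25 (0.0364), 0.824 for the unnamed probe 770725 (0.0148), 0.818 for Mettl21c (0.00842), 0.771 for Lgals4 (0.0464) and 0.626 for Rrad (0.0396), and -1.51 for Acta1 (0.00213) and -1.19 for the unnamed probe 105550685 (0.0126). Each kept its sign over all 12 arrays, where none passed. Without the 2 arrays probe 105550685 had responses of -0.837 in heart and 0.385 in muscle, the latter under 1.4-fold. In muscle Rrad, Lgals4 and probe 770725, and in heart Mettl21c and Slc25a25, had signals near the median of all probes, and Acta1 in muscle was near the highest signal of any probe, so a response of that tissue may not show and these differences describe the other tissue. In Art4 every iron heart lay above every control heart and every iron muscle below every control muscle, with a difference of 0.365 over 12 arrays that passed in neither set and signals in muscle near or below the median of all probes. The opposite directions themselves were not tested, and 0.284% of all probes had arrays apart in opposite directions in this way. Groups of 3 arrays are too small for a test of single outlying samples.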

How the results depend on the processing

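Without Heart_iron 1 and Heart_control 2, which were left out together, 8 probes passed for the difference between the tissues (0 over all arrays), 68 for the mean response (9 over all arrays), 28 in heart (0) and 46 in skeletal muscle (46), and 8 and 1 probes were past 1.4-fold in the same and in opposite directions (14 and 3). With no replicate block 15 probes passed for the mean response and 0 for the difference, and with the replicate number as a fixed block 15 passed for the mean response, 0 for the difference and 77 in muscle; the numbers did not clearly pair the arrays. Median scaling left 0 for the mean response and 0 in muscle. Normexp background correction left 2 for the mean response, 0 in muscle, and 22 and 6 past 1.4-fold. Probes above the median signal gave 3 for the mean response. The trended and robust prior gave 1 for the difference, 27 for the mean response and 2 in heart, and array weights gave 34 for the mean response. A single fit over the 4 groups gave 5 in heart and 2 in muscle. At 1.3-fold the counts were 25 and 6. The cause of these shifts was not tested.

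With each array left out in turn, the count for the difference lay from 0 to 1 (1 without Heart_iron 3), for the mean response from 2 (without Skeletal_muscle_iron 1) to 30 (without Heart_iron 1), in heart from 0 to 1, in muscle from 27 (without Skeletal_muscle_iron 1) to 65, and past 1.4-fold from 8 (without Heart_control 2) to 16 in the same and from 1 (without Heart_control 2) to 6 (without Skeletal_muscle_iron 2) in opposite directions. Of 1486 values of 69 results of named genes under the alternatives, 1326 kept their direction and side of the threshold, 103 came to pass it and 56 no longer passed. In 1 the direction reversed, the difference between the tissues for Hbb-bs, which was -1.89 over all arrays and 0.0687 without Heart_iron 1 (-2.89 to 0.0687 with each array left out in turn). With 3 arrays per group, and signals near the floor of the array for genes of 1 tissue, small differences were not detectable.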
